A study of Mus musculus with 14 samples.

Results

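Nos2, the gene of the inducible nitric oxide synthase, was examined together with the genes that supply its substrate and cofactor or that compete with it for arginine. The set held 10 of the 43472 genes listed in both deposited count tables. It comprised the synthases Nos2 and Nos3, the arginine transporter gene Slc7a2, the arginine synthesis genes Ass1 and Asl, the tetrahydrobiopterin synthesis genes Gch1, Pts and Spr, and the arginase genes Arg1 and Arg2. Rows were matched by gene symbol, and all 10 symbols were found. The set was put together with the large difference of Nos2 at 5 h and other results of these data already known, so the differences of its genes between treated and untreated cells are given as a description. No p-value is given for a single gene of the set, and counts of its genes past a test's threshold are given only beside the share of all genes past it.

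The cells were primary fibroblasts from the tail tips of C57BL/6 mice. The mice carried no modification named in the labels, and their age is not stated there. All cultures were scratched as a model of a wound. Untreated cultures received growth medium, and AMG-treated cultures received autologous micrograft, a filtered, cell-depleted extract of minced mouse skin that was diluted in growth medium. Replicate 1 gave 1 untreated and 1 AMG-treated library at each of 1, 5, 12 and 24 h (8 libraries), and replicates 2, 3 and 4 gave 3 untreated and 3 AMG-treated libraries at 5 h. Values are read counts per gene divided by a size factor of the library, called normalised counts below. The table of replicate 1 and the table of replicates 2 to 4 were scaled separately, so levels were compared only within a table. The libraries held 12545537 to 34696529 reads, and 3 reads, taken as the floor of detection, corresponded to a normalised count of 1.62 to 5.22 depending on the library. Whether the replicates came from separate animals or cultures beyond the description as biological replicates is not stated, and p-values measure only the spread between these libraries.

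Nitric oxide synthases oxidise arginine to citrulline and nitric oxide and need tetrahydrobiopterin as a cofactor. The inducible enzyme encoded by Nos2 is controlled largely through transcription and is known from macrophages and other cells exposed to inflammatory signals. Arginine enters cells through cationic amino acid transporters such as the one encoded by Slc7a2, and is remade from citrulline by argininosuccinate synthase (Ass1) and argininosuccinate lyase (Asl). Tetrahydrobiopterin is made from GTP by GTP cyclohydrolase (Gch1), the rate-limiting enzyme, followed by 6-pyruvoyltetrahydropterin synthase (Pts) and sepiapterin reductase (Spr). Arginases (Arg1 in the cytosol, Arg2 in mitochondria) split arginine into ornithine and urea and so draw on the same pool as the synthases.

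The promoters of 4 of the 10 genes (Ass1, Gch1, Pts and Spr) were taken from RefSeq (GRCm38.p6), and those of 2 are shown because they belong to the supply genes whose values lay apart between the groups. Each run is the 250 bases before the transcription start, 5′ to 3′ on the strand of the gene, and capitals mark motif matches on either strand. The Ass1 stretch lies at chr2:31470020-31470269 on the plus strand, and the Gch1 stretch lies at chr14:47189414-47189663 on the minus strand.
Ass1: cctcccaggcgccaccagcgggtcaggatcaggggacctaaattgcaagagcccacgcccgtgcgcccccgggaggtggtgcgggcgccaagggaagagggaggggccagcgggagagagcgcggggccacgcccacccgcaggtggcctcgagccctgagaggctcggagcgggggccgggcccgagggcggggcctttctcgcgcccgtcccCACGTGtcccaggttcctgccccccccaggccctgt
Gch1: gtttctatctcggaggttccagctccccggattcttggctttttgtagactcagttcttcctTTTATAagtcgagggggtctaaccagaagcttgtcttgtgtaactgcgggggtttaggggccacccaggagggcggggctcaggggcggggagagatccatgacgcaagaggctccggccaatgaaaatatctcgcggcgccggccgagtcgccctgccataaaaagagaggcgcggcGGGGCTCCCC
The motifs searched in windows from 250 bases before to 50 bases after the start were the kB motif by its usual consensus, AP-1 (TGANTCA), GAS (TTCNNNGAA), ARE (TGACNNNGC), HRE (ACGTG) and the letters TATAAA for the TATA box. In Ass1, the capitals are an overlapping pair of HRE matches, 1 on each strand, at positions -36 to -31, and 19.6% of 32851 promoters of this length held an HRE match. In Gch1, the second run of capitals is a kB match at positions -10 to -1, present in 4.51% of promoters. The first run of capitals in Gch1 is a TATA match on the opposite strand at positions -188 to -183, and TATA matches were present in 13.6% of promoters. The Pts and Spr windows held no match to any of these motifs, while AP-1 was matched in 7.81%, GAS in 8.30% and ARE in 12.4% of all promoters. A match describes letters in the window and is neither a binding site nor a cause.

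At 5 h, Nos2 was close to absent without AMG and abundant with it. Nos2 lies on chromosome 11 (chr11:78920787-78960254, plus strand, GRCm38). In replicates 2, 3 and 4 its normalised count was 6.60, 1.39 and 1.08 in untreated cells, from 6, 1 and 2 reads, and 1496, 503 and 1782 in AMG-treated cells. The groups were far apart, with the lowest treated library in replicate 3. The ratio within a replicate was 227-fold in replicate 2 (95% counting interval 104 to 619), 361-fold in replicate 3 (64.6 to 14302) and 1648-fold in replicate 4 (455 to 13617). Because so few reads lay behind the untreated values, these ratios cannot be ordered, and reads summed over the 3 replicates gave 450-fold (237 to 985). On the log2(value + 1) scale the difference was 8.36 ± 0.67 (SE, n = 3 per group).

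Nos3, the endothelial synthase gene on chromosome 5 (chr5:24364810-24384474), stayed at the edge of detection. Its normalised count was 3.30, 1.39 and 2.70 in untreated cells and 2.54, 2.46 and 1.13 in AMG-treated cells, from at most 5 reads in a library, and the groups overlapped. It overlaps Atg9b on the other strand. The strand setting of the counting is not given in the sources used here, so its few reads may belong to either gene. Nos3 was the 1 gene of the set outside the fit, which used genes with a mean of at least 10.

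Of the arginine supply genes, Slc7a2 differed most between the groups. Slc7a2 (chr8:40862396-40922308, plus strand) had normalised counts of 327, 69.6 and 202 in untreated cells and 3640, 930 and 3277 in AMG-treated cells, in replicates 2, 3 and 4. All treated values lay above all untreated values, and replicate 3 was the lowest library in both groups. The ratio was 11.1-fold in replicate 2 (9.88 to 12.6), 13.4-fold in replicate 3 (10.1 to 18.1) and 16.2-fold in replicate 4 (14.5 to 18.1), and the log2 difference was 3.74 ± 0.70 (SE, n = 3 per group). It overlaps a non-coding gene, Gm26584, on the other strand.

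Ass1 (chr2:31470207-31520672, plus strand) was abundant in both groups and showed a small difference of nearly the same size in every replicate. Its normalised counts were 852, 1320 and 1069 in untreated cells and 1436, 2240 and 1756 in AMG-treated cells. Here replicate 3 held the highest value in each group, the opposite of Slc7a2. The ratio was 1.69-fold, 1.70-fold and 1.64-fold in replicates 2, 3 and 4, and the log2 difference was 0.74 ± 0.22 (SE, n = 3 per group). Asl (chr5:130011258-130029247, minus strand), the next enzyme, had values of 607, 796 and 696 without AMG and 564, 796 and 782 with it. Its groups overlapped, and its log2 difference was 0.02 ± 0.19 (SE).

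Among the cofactor genes, the first and rate-limiting step stood apart from those that follow it. Gch1 (chr14:47153895-47189413, minus strand) had normalised counts of 224, 57.1 and 213 in untreated cells and 1524, 433 and 1478 in AMG-treated cells. The groups did not overlap, and replicate 3 was again lowest in both. The ratio was 6.79-fold (5.85 to 7.92), 7.58-fold (5.51 to 10.7) and 6.96-fold (6.21 to 7.81) in replicates 2, 3 and 4, and the log2 difference was 2.82 ± 0.68 (SE). The processed pseudogenes Gm49134 (other strand) and Gm18811 (same strand) overlap the interval of Gch1. The genes they were copied from are not given, and their part in the Gch1 counts was not tested. Pts (chr9:50521617-50528724, minus strand) had values of 231, 209 and 201 without AMG and 281, 225 and 262 with it, which overlapped. Spr (chr6:85130176-85137766, minus strand) had values of 926, 794 and 851 without AMG and 1280, 869 and 1268 with it, and its ratio ranged from 1.10-fold in replicate 3 to 1.49-fold in replicate 4. The log2 differences were 0.26 ± 0.17 (SE) for Pts and 0.39 ± 0.18 (SE) for Spr.

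The arginase genes were both low at 5 h. Arg2 (chr12:79130777-79156301, plus strand) had normalised counts of 8.80, 0 and 0 in untreated cells and 42.0, 28.7 and 35.0 in AMG-treated cells. It was higher with AMG by 4.77-fold in replicate 2 (2.16 to 12.0), at least 6.87-fold in replicate 3 and at least 21.6-fold in replicate 4, where the bounds set the untreated libraries at 3 reads each. Its log2 difference was 4.07 ± 0.98 (SE), a value that depends on the pseudocount. Arg2 overlaps Vti1b on the other strand. Arg1 (chr10:24915221-24927484, minus strand) had values of 48.4, 0 and 36.2 without AMG and 14.0, 0.82 and 11.3 with it, and the groups overlapped because replicate 3 held at most 1 read in either. In replicates 2 and 4 untreated cells had 3.46-fold (1.76 to 7.43) and 3.21-fold (1.64 to 6.995) more Arg1 than treated cells.

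**Figure D1:**
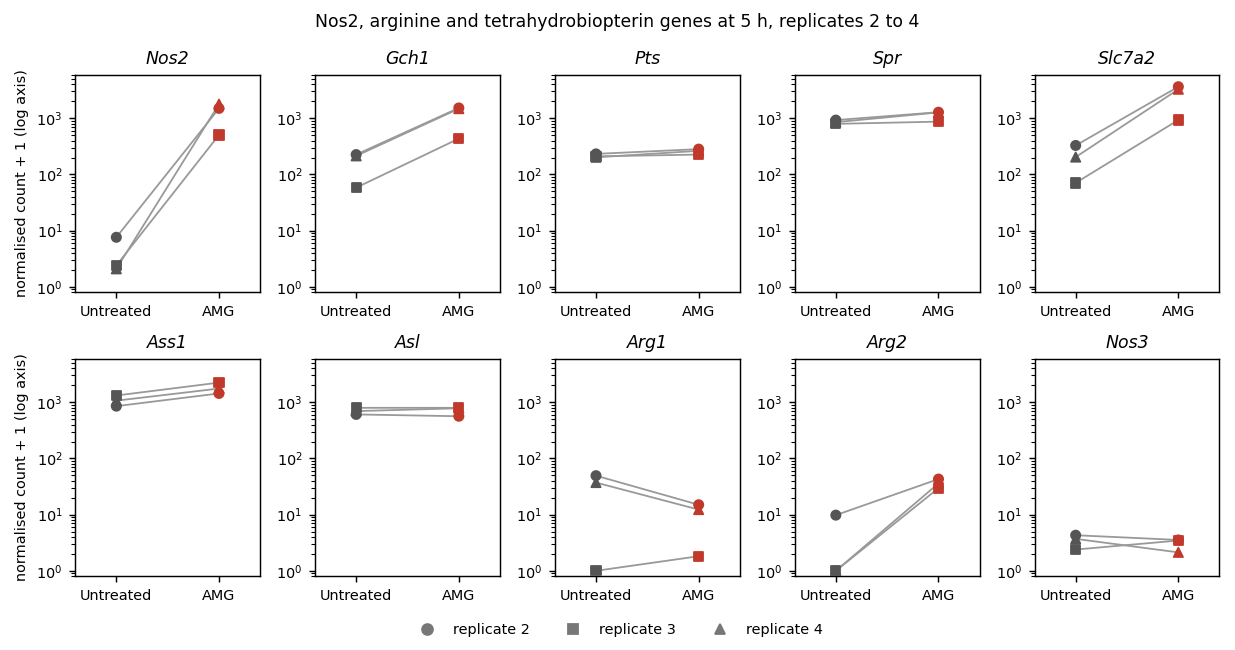
Normalised count + 1 (log axis) of the 10 genes in untreated and AMG-treated fibroblasts at 5 h; each line joins the untreated and treated library of 1 replicate (circle 2, square 3, triangle 4). Nos2, Gch1, Slc7a2, Ass1 and Arg2 lie higher with AMG in all 3 replicates without overlap of the groups, and the other panels overlap.

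In all, 5 of the 9 genes in the fit had all treated values above all untreated values (Nos2, Slc7a2, Gch1, Arg2 and Ass1) and 0 had all of them below, against 15.1% of the 13096 genes tested that lay wholly higher and 13.6% wholly lower. Nos2 and Arg2 entered the fit only through their treated values, since their untreated means were 3.02 and 2.93. Arg1 entered it only through its untreated values, with a mean of 28.2 without AMG and 8.70 with it. With an adjusted p under 0.05 in limma and a log2 fold change past 1, 1 of the 9 genes (Nos2) was called higher and 0 lower, while 0.855% of all genes were called higher and 0.244% lower. At an unadjusted p under 0.05 in limma there were 5 higher and 0 lower, against 11.9% and 11.1% of all genes. On the recovered reads edgeR called 1 higher and 0 lower, against 0.741% and 0.199%, and DESeq2 called 3 higher and 0 lower, against 2.57% and 1.76%. With the replicate number as a block, 4 were called higher (Nos2, Slc7a2, Gch1 and Arg2) and 0 lower (1 lower, Arg1, in edgeR with the block, against 4.14%), against 4.05% and 4.28% of all genes. These counts describe genes chosen with this contrast known. Without the AMG-treated library of replicate 2, or that of replicate 4, limma called 0 of the 9 (0.00764% and 0.0458% of all genes higher), and without that of replicate 3 it called 3 higher (3.41%).

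For Gch1, Slc7a2 and Ass1, replicates differed more in level than in the ratio within a replicate. Untreated Gch1 spanned 3.93-fold from the lowest to the highest replicate and treated Gch1 3.52-fold, yet its ratio within a replicate spanned 1.12-fold. Slc7a2 spanned 4.69-fold and 3.92-fold in level and 1.45-fold in ratio, and Ass1 spanned 1.55-fold and 1.56-fold in level and 1.03-fold in ratio. Nos2 did not show this, with 6.10-fold and 3.54-fold in level and 7.27-fold in ratio, and neither did Spr (1.17-fold untreated, 1.47-fold treated and 1.36-fold in ratio) or Pts (1.15-fold, 1.25-fold and 1.21-fold). The SE of the log2 difference was 0.68 without and 0.12 with the block for Gch1, 0.70 and 0.13 for Slc7a2, and 0.67 and 0.39 for Nos2. Replicate 1, which entered neither fit, had a 5 h ratio of 10.7-fold for Slc7a2 (9.51 to 12.1), 1.62-fold for Ass1 (1.52 to 1.74) and 3.99-fold for Gch1 (3.29 to 4.88). Without a correction for transcript length, the Slc7a2 and Ass1 ratios of replicate 1 were thus close to those of replicates 2 to 4. The Gch1 ratio was smaller. The 5 h log2 ratio of all genes ran with transcript length. Spearman rho was 0.49 in replicate 1 and -0.37, -0.22 and -0.44 in replicates 2, 3 and 4. With this trend subtracted, Slc7a2 had 2.75 in replicate 1 against 3.85, 3.88 and 4.47. Ass1 had 1.12 against 0.58, 0.71 and 0.53, so for both replicate 1 then lay outside the range of the others.

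**Figure D2:**
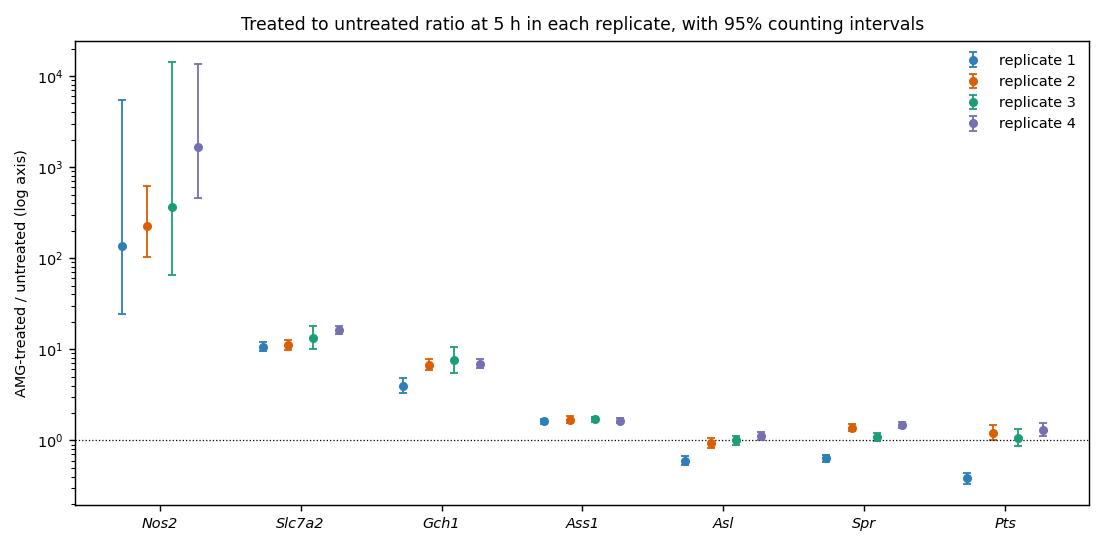
Ratio of AMG-treated to untreated normalised count at 5 h (log axis) for 7 genes in replicates 1 to 4, with 95% counting intervals as bars; the dotted line marks a ratio of 1. The Ass1 ratios sit between 1.62 and 1.70 in all 4 replicates, while the Nos2 intervals are wide because untreated libraries held 1 to 6 reads, and Asl, Spr and Pts lie below 1 in replicate 1. Arg1 and Arg2 are left out because untreated libraries at 0 reads give no ratio. Nos3 is left out because replicates 2 and 3 held at most 3 reads in both groups.

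Over 24 h in replicate 1, Nos2 was higher at each later time with AMG, whereas Slc7a2 and Gch1 were already well above untreated cells at 1 h. There was 1 library for each group and time, so these values have no replicate check. The AMG-treated Nos2 count was 36.5, 225, 935 and 3745 at 1, 5, 12 and 24 h, and the untreated count was 7.91, 1.64, 5.85 and 5.36. The ratio was 4.62-fold at 1 h (2.03 to 11.4), 137-fold at 5 h (24.5 to 5443), 160-fold at 12 h (80.7 to 371) and 699-fold at 24 h (339 to 1739). From 1 to 24 h the treated level differed 103-fold (67.0 to 166). The steps were 6.17-fold from 1 to 5 h, 4.15-fold from 5 to 12 h and 4.01-fold from 12 to 24 h.

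Ass1 was the member of the supply genes whose treated level also went up at each later time. It was 2582, 3046, 5613 and 9720 with AMG at 1, 5, 12 and 24 h, and 2474, 1875, 2209 and 2129 without it. The ratio was 1.04-fold at 1 h (0.979 to 1.11), 1.62-fold at 5 h, 2.54-fold at 12 h (2.43 to 2.66) and 4.57-fold at 24 h (4.38 to 4.76). The treated level at 24 h was 3.76-fold that at 1 h (3.57 to 3.98). Asl was 570, 448, 650 and 723 with AMG and 485, 746, 680 and 487 without it, and its ratio lay between 0.601 at 5 h and 1.48 at 24 h.

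Gch1 had its difference at the first time and kept its level. It was 765, 766, 656 and 590 with AMG and 110, 192, 71.0 and 66.6 without it. The ratio was 6.96-fold at 1 h (5.70 to 8.56), 3.99-fold at 5 h, 9.24-fold at 12 h (7.46 to 11.5) and 8.86-fold at 24 h (7.08 to 11.2), and the treated level at 24 h was 0.772 of that at 1 h (0.683 to 0.873). Slc7a2 was highest early, at 4119, 4954, 1662 and 1620 with AMG and 1086, 462, 523 and 812 without it. Its ratio was 3.79-fold, 10.7-fold, 3.18-fold and 2.00-fold at 1, 5, 12 and 24 h. At 24 h the treated Slc7a2 level was 0.393 of that at 1 h (0.370 to 0.418), over the same interval in which treated Nos2 went up.

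Arg2 also had a level with AMG that was present at 1 h and lasted. It was 125, 75.8, 113 and 116 with AMG at 1, 5, 12 and 24 h and 7.03, 4.92, 1.46 and 0 without it. The ratio was 17.8-fold at 1 h (8.57 to 42.8), 15.4-fold at 5 h (5.12 to 76.0), 77.5-fold at 12 h (21.0 to 647) and at least 50.5-fold at 24 h. Arg1 was 26.1, 13.2, 0 and 10.8 with AMG and 23.7, 16.4, 8.78 and 0.77 without it, and Nos3 was at most 22.4 in any library of replicate 1, at 5 h with AMG.

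Pts and Spr did not keep 1 direction over time. Pts was 755, 302, 248 and 320 with AMG and 303, 788, 327 and 379 without it, so it was 2.49-fold higher at 1 h and 0.384 of the untreated level at 5 h. Spr was 1248, 1075, 1112 and 1127 with AMG and 896, 1696, 1113 and 910 without it. Both are short transcripts (1046 and 1230 bases). In replicate 1 the log2 ratio of all genes ran with transcript length (Spearman rho = -0.52 at 1 h and 0.49 at 5 h over 13330 genes). Replicates 2, 3 and 4 also had such a trend at 5 h, with rho of -0.37, -0.22 and -0.44. The share of reads on ribosomal protein genes was 5.04% in the AMG-treated library at 1 h and 6.92% in the untreated library at 5 h, against 2.23% to 3.41% in the others. With the length trend subtracted, the log2 ratio of Pts went from 1.31 to 0.53 at 1 h and from -1.38 to -0.59 at 5 h. That of Spr went from 0.48 to -0.16 at 1 h and from -0.66 to 0.01 at 5 h. For Slc7a2, a long transcript (7910 bases), it went from 1.92 to 2.49 at 1 h and from 3.42 to 2.75 at 5 h. The gap between its 1 h and 5 h ratios was thus smaller after the subtraction. The part of this trend in the result was not tested beyond the subtraction.

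**Figure D3:**
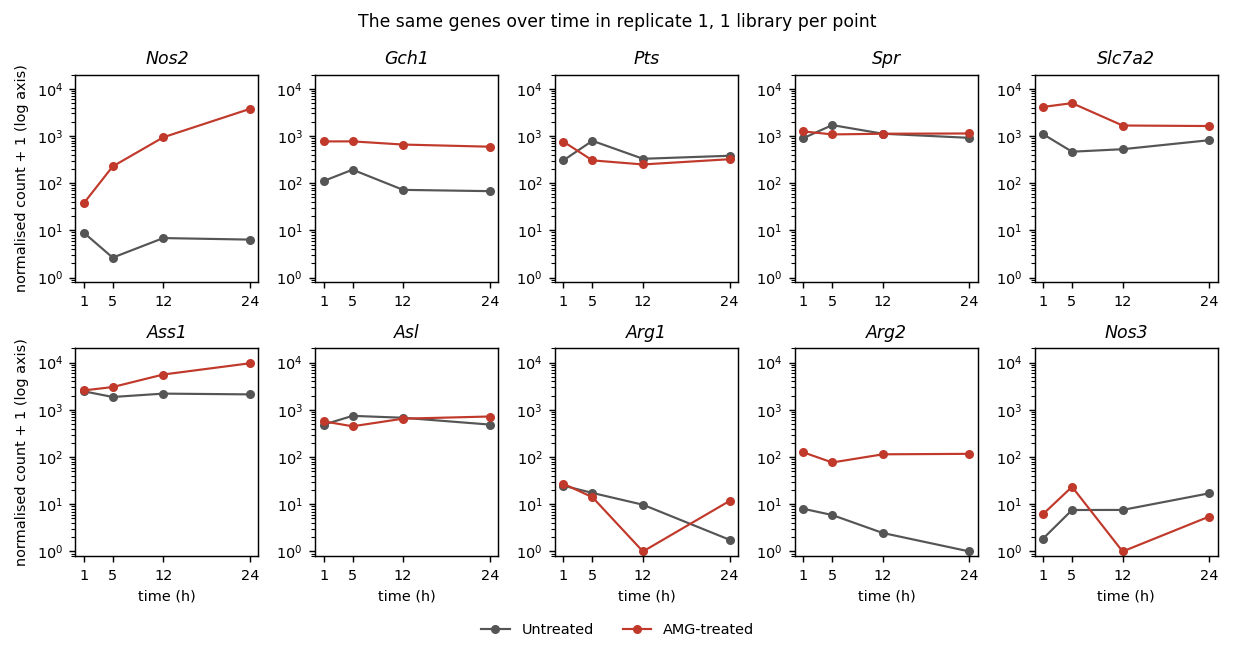
Normalised count + 1 (log axis) of the 10 genes at 1, 5, 12 and 24 h in replicate 1, with 1 library per point, untreated in grey and AMG-treated in red. The red Nos2 line climbs from 36.5 to 3745 and the red Ass1 line from 2582 to 9720, while the red Gch1 and Arg2 lines are already apart from the grey at 1 h and the red Slc7a2 line is highest at 5 h.

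Counted by a log2 ratio past 1, 5 of 9 genes were higher at 1 h (Nos2, Slc7a2, Gch1, Arg2 and Pts), against 11.3% of 13498 genes, and 0 were lower, against 10.7%. At 5 h there were 4 higher (Nos2, Slc7a2, Gch1 and Arg2), against 13.3%, and 1 lower (Pts), against 12.6%. At 12 h there were 5 higher (Nos2, Slc7a2, Gch1, Arg2 and Ass1), against 5.93%, and 1 lower (Arg1), against 6.9%. At 24 h there were 5 higher (Nos2, Gch1, Arg1, Arg2 and Ass1), against 6.05%, and 0 lower, against 8.05%, with Slc7a2 at 0.996, just under the limit. Nos2, Gch1 and Arg2 were past it at all 4 times, 3 of 9 genes against 0.956% of all genes.

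Levels of different genes were compared per kilobase of transcript, with lengths from GENCODE. In untreated cells of replicates 2 to 4 the order of mean normalised count per kilobase was Spr (697 ± 54.0, SD, n = 3), Ass1 (637 ± 138), Asl (290 ± 39.2), Pts (204 ± 15.0), Gch1 (59.3 ± 33.6), Slc7a2 (25.2 ± 16.3), Arg1 (19.1 ± 17.0), Arg2 (2.05 ± 3.56), Nos2 (0.88 ± 0.90) and Nos3 (0.60 ± 0.24). Spr and Ass1 overlapped, as did all neighbours from Gch1 downwards. Without AMG, the arginine synthesis genes and the late cofactor genes were thus the abundant members, and Nos2 was among the lowest. With AMG the order was Ass1 (1068 ± 238), Spr (926 ± 190), Gch1 (413 ± 222), Nos2 (368 ± 196), Slc7a2 (331 ± 186), Asl (296 ± 54.0), Pts (245 ± 27.5), Arg2 (24.7 ± 4.66), Arg1 (5.89 ± 4.71) and Nos3 (0.49 ± 0.19). Ass1 and Spr overlapped, and each gene from Gch1 to Pts overlapped the next.

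Within the treated libraries at 5 h, Nos2 stood at 0.794, 0.941 and 0.976 of Gch1 per kilobase in replicates 2, 3 and 4, a narrower range than that of either level. In replicate 1, the treated Nos2 to Gch1 ratio per kilobase was 0.039, 0.238, 1.15 and 5.13 at 1, 5, 12 and 24 h, because the Nos2 level went up while that of Gch1 did not. The treated Nos2 to Ass1 ratio in replicate 1 was 0.0070, 0.037, 0.082 and 0.191, so Ass1 remained above Nos2 at every time. At 5 h it was larger in replicates 2, 3 and 4, at 0.515, 0.111 and 0.502. The Ass1 to Asl ratio per kilobase in replicate 1 was 6.44, 9.67, 12.3 and 19.1 with AMG and 7.26, 3.58, 4.62 and 6.22 without it. The summed arginase level per kilobase exceeded that of Nos2 at 1 h with AMG in replicate 1, where Nos2 stood at 0.101 of it. The ratio was 1.06 at 5 h, 3.43 at 12 h and 12.3 at 24 h in this replicate. At 5 h it was 11.2, 7.11 and 16.2 in replicates 2, 3 and 4, so the 5 h value of replicate 1 lay far below theirs.

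Other genes of the pathways were read from 7 lists of 72 genes, of which 59 were tested. The lists were chosen by role with earlier results of these data known. In limma, 5 of the 59 rose with AMG and 0 fell, against 0.855% and 0.244% of all genes. At an unadjusted p under 0.05 there were 15 higher and 5 lower, against 11.9% and 11.1%, and edgeR and DESeq2 each called 0 lower. With the replicate block 10 rose and 3 fell, against 4.05% and 4.28% of all genes. At an adjusted p under 0.05 of any size there were 21 higher and 11 lower with the block, against 17.9% and 19.3% of all genes. The median log2 fold change of the 59 was 0.16, and that of all genes was -0.02. Without the AMG-treated library of replicate 2 or of replicate 4, 0 of the 59 rose, and without that of replicate 3 there were 11.

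The steps next to Gch1 gave no call. Of 6 tested genes for tetrahydrobiopterin recycling and use, 0 rose and 0 fell in limma with or without the block (1 higher at an unadjusted p under 0.05 with it, 0 without), 0 did so in edgeR or DESeq2, and their median log2 fold change was 0.17. Qdpr, which regenerates the cofactor, had a log2 fold change of 0.22 ± 0.20 (SE). Gchfr, whose product is the feedback regulator of the cyclohydrolase, had 0.82 ± 0.63 and was higher in 3 of 3 replicates of the fit. In replicate 1, which was outside the fit, Gchfr was lower with AMG at 5 h. Its log2 ratio there was 1.66, -1.78, -0.45 and 1.64 at 1, 5, 12 and 24 h. Among 6 tested transporters of cationic amino acids and ornithine, 0 rose and 0 fell in limma with or without the block or in edgeR or DESeq2, 1 was higher at an unadjusted p under 0.05 in each, and the median was -0.01. Slc7a1, the other main arginine transporter of many cells, had 0.04 ± 0.20, and its normalised count averaged 1696 without and 1759 with AMG.

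Of 12 tested genes for polyamine metabolism and other uses of arginine, 2 rose in limma and 0 fell, with a list median of 0.32. Smox, which oxidises spermine, differed by 2.30 ± 0.25 on the log2 scale (SE, adjusted p = 0.019), higher in 3 of 3 replicates. Sat1, which acetylates spermidine and spermine for export or breakdown, had 1.09 ± 0.15 (adjusted p = 0.0303), also higher in 3 of 3. The Sat1 call was lost with the length trend subtracted, with or without the block, and in edgeR on all 4 replicates. With the block Odc1, which makes putrescine from ornithine, passed the call at 1.00 ± 0.11 (SE with the block), a call that was lost with the length trend subtracted as well. Gatm, the arginine:glycine amidinotransferase of creatine synthesis, was then called lower at -1.71 ± 0.48. Of 7 tested ornithine, proline and glutamine genes, 0 were called in limma or edgeR (2 higher and 1 lower at an unadjusted p under 0.05), Glul, which makes glutamine, rose in DESeq2, and Prodh, which starts proline breakdown, rose with the block (1.34 ± 0.41). The list median was 0.04. Of 9 tested partners of the synthases, such as calmodulins and the Ddah enzymes, 0 were called in limma with or without the block or in edgeR or DESeq2 (0 at an unadjusted p under 0.05 in limma, 2 higher and 2 lower with the block), with a median of 0.13.

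The 4 tested genes of nitric oxide reception and cGMP signalling all had negative log2 fold changes, and their median was -0.95. In limma 0 were called (2 lower at an unadjusted p under 0.05), as in edgeR and DESeq2. With the block 2 fell, Gucy1b1 (listed as Gucy1b3), a subunit of the nitric oxide receptor, by 1.06 ± 0.25 on the log2 scale, and Pde5a, which breaks down cGMP, by 1.93 ± 0.24. Prkg1 and Prkg2, the cGMP-dependent kinases, had -0.84 ± 0.19 and -0.33 ± 0.10 with the block, short of the size for a call. In replicate 1 the Gucy1b1 log2 ratio was 0.63, -0.29, -2.79 and -4.70 at 1, 5, 12 and 24 h.

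Of 15 tested inducers and transcription factors known for Nos2, 3 rose in limma and 0 fell, with a list median of 0.58. Nfkbiz, an NF-kB cofactor, differed by 3.03 ± 0.22 on the log2 scale (SE, adjusted p = 0.00567) and Nfkb1, an NF-kB subunit, 1.82 ± 0.23 (adjusted p = 0.0211), each higher in 3 of 3 replicates. Il1a, the gene of interleukin-1 alpha, averaged 0.18 without and 98.0 with AMG and was called higher, a call that was lost with a pseudocount of 10. With the block Cebpb and Cebpd rose, and Tnf, which averaged 1.26 without and 32.0 with AMG, was called higher. At an adjusted p under 0.05 of any size in limma with the block, 9 of the 15 were higher and 2 lower. The shares of all genes were 17.9% and 19.3%. The 2 lower genes were Tlr4 (-0.83 ± 0.22, SE with the block) and Irf1 (-0.58 ± 0.16), short of the size for a call. Il1a and Tnf entered the fit only through their treated values, so their calls are a description of the levels. Ifng and Ifnb1 had 0 reads in all 6 libraries, which allows up to 3 reads in each.

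**Figure D4:**
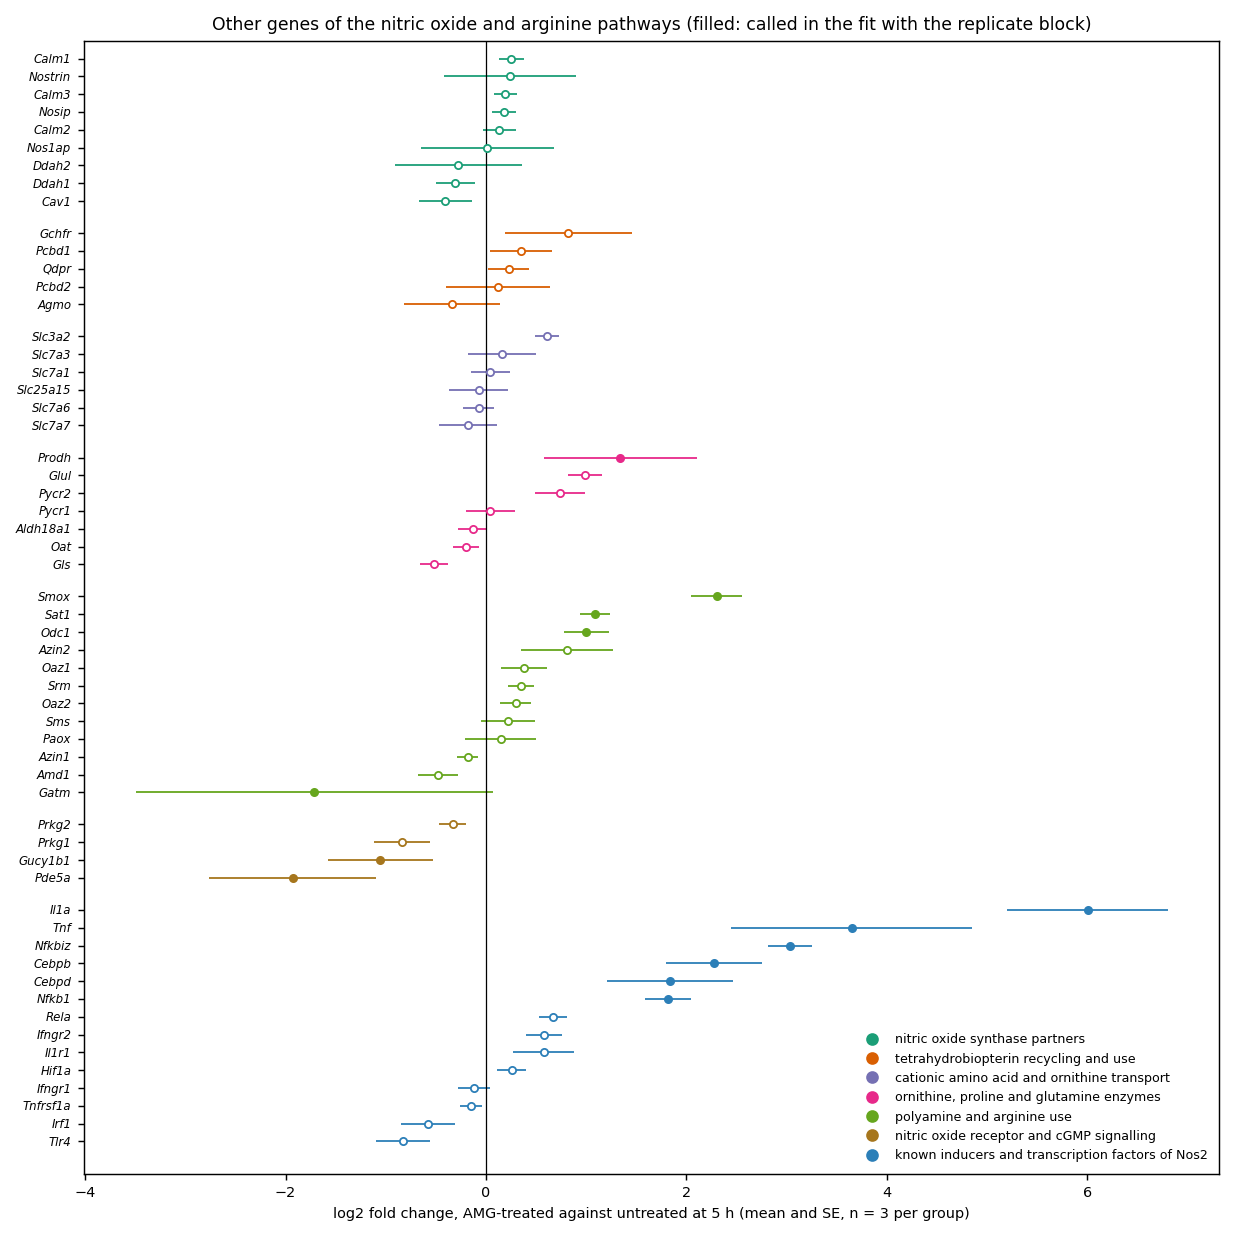
Log2 fold change at 5 h, AMG-treated against untreated in replicates 2 to 4 (point and SE without the block, n = 3 per group), of 57 of the 59 tested genes of 7 pathway lists, coloured by list; filled points were called with the replicate block. Il1a, Tnf and Nfkbiz lie farthest to the right, the 4 cGMP genes lie left of 0, and the cofactor recycling and transport lists have no filled point.

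Markers of other cells were examined because Nos2 and the arginases are well known from macrophages. All 10 fibroblast markers were above the floor in every library. In replicates 2 to 4 their sum was 479904 to 643837 normalised counts without AMG and 360187 to 466402 with it, without overlap. Of the 10, 9 had a negative log2 fold change (list median -0.48), 7 of them at an adjusted p under 0.05 with the block, and 0 were past 1 in size. The 12 macrophage and leukocyte markers summed to 244 to 1649 in untreated and 548 to 2008 in AMG-treated libraries of replicates 2 to 4, and 11 of the 12 were above the floor in at least 1 library of each group. In replicate 2, where treated Nos2 stood at 1496, Ptprc (CD45) and Itgam had 0 reads with and without AMG. Other markers of the list were detected there without and with AMG, Lyz2 at 158 and 127, Csf1r at 81.4 and 59.8, Cd14 at 152 and 565 and Mrc1 at 18.7 and 87.8. In replicate 4, where treated Nos2 was highest at 1782, Ptprc had 11.9 and 11.3, Itgam 31.4 and 19.2 and Lyz2 978 and 916. In replicate 3, where treated Nos2 was 503, Ptprc had 1.39 and 0, Itgam 0 and 0 and Lyz2 76.6 and 95.9. With the block Cd14 and Mrc1 rose, by a log2 fold change of 1.93 ± 0.14 and 2.05 ± 0.35 (SE), and 0 of the 8 tested markers fell. Without the block limma called 0 of the 8 (1 higher at an unadjusted p under 0.05), edgeR 0 and DESeq2 1. The part of such cells in the Nos2 values was not tested, and in bulk RNA fewer cells of a type and less RNA per cell cannot be told apart. Of the 8 keratinocyte markers, Krt5, Krt14 and Krt1 had 0 reads in all 6 libraries of replicates 2 to 4. Of the 5 tested, Sfn rose with the block (mean 133 without and 461 with AMG), and Dsp (180 and 73.6) and Trp63 (26.2 and 2.45) fell. Trp63 entered the fit only through its untreated values, so its call is a description of the levels. The list summed to 210 to 519 without and 202 to 836 with AMG. Of the 8 endothelial markers, Emcn had 0 reads and 2 were tested, of which Tek fell with the block (83.9 and 37.9) and Egfl7 averaged 43.5 and 57.1. The part of these cells in the results was not tested. Among replicates 2 to 4, replicate 3 stood apart in some fibroblast markers, in both directions. Thy1 was at 14712 and 14412 (untreated and treated) against 1068 to 1723 in replicates 2 and 4. Lum, at 333 and 219 against 1423 to 6374, was lower there. So was Dcn, at 1372 and 1372 against 3556 to 5151. This was not particular to replicate 3. Replicate 1 at 5 h, scaled separately, had Thy1 at 17756 and 13585, Lum at 146 and 125 and Dcn at 883 and 758 (untreated and treated). Of replicates 2 to 4, replicate 3 also had the lowest Nos2, Gch1 and Slc7a2 with AMG and the highest Ass1. A link between these levels and the markers was not tested.

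The genes whose pattern was most like that of Nos2 were ranked among the 12843 genes that averaged 10 or more in each table. The measure was the smaller of 2 Pearson correlations of log2(value + 1), over the 8 libraries of replicate 1 and over the 6 libraries of replicates 2 to 4, and libraries of 1 treatment and table share its scaling. The first 5 were Slc11a2 (0.96), an iron transporter gene, Slc7a11 (0.96), a subunit of the cystine transporter, Gsap (0.95), Ikbke (0.94), a kinase of innate immune signalling, and Cxcl5 (0.94), a chemokine gene. Of the 10 genes described here, Arg2 ranked 80, Gch1 147, Ass1 214 and Slc7a2 454, with smaller correlations of 0.81, 0.76, 0.71 and 0.58. For Ass1 the smaller value came from replicates 2 to 4 (0.71), where its replicate order differed from that of Nos2. The value over the 8 libraries of replicate 1, treated and untreated together, was 0.95. For Slc7a2 it was the reverse, 0.95 in replicates 2 to 4 and 0.58 over the 8 libraries of replicate 1. Asl, Pts, Spr and Arg1 had smaller correlations of -0.06, -0.49, -0.13 and -0.24.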

How the data were processed

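RNA of 14 libraries was sequenced. The authors prepared stranded poly(A) libraries, aligned single-end reads to mm10 with TopHat2 2.0.13, counted uniquely aligned reads per gene with HTSeq 0.5.3p3 and divided the counts by DESeq size factors. The annotation release and strand setting are not given in the sources used here. The deposited values are thus a normalised signal per gene (normalised counts), in 2 tables scaled separately, and 0 columns were left unused. Low values were whole multiples of 1 step per library, and 100% of values gave whole reads within a tolerance of 0.1. Counting intervals are exact 95% intervals for a ratio of 2 Poisson counts, and they and the floor of 3 reads cover counting error only.

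Groups and replicate numbers came from the sample titles. Replicates 2 to 4 at 5 h were compared with limma 3.58.1 in R 4.3.3 (trend) on log2(value + 1) over 13096 genes with a mean of at least 10. Fold changes on this scale understate those of low genes. Genes were called at a Benjamini-Hochberg adjusted p under 0.05 over all genes tested and a log2 fold change past 1. Across genes, the departures of a treated and an untreated library from the means of their groups had r = 0.65, 0.76 and 0.70 for replicates 2, 3 and 4 and -0.59 to 0.12 for unlike numbers, so the numbers paired the libraries, and a fit with the replicate block stands beside the main one where it changes a call. Replicate 1 has 1 library per group and time and no test. Tables were read with Python 3.11.15 and pandas 2.3.3. The fit was tested on simulated data.

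The genes and pathway lists were chosen with earlier results of these data known. Named were all 10 genes, the called genes of each list (at most 4 by size), genes that are the only ones of their step, and the 5 genes most like Nos2. Genes called only with the block, and Tlr4, Irf1, Ifng, Ifnb1 and single markers, were named after their values were seen. Alternatives were pseudocounts of 0.1 and 10, other filters, the block, scaling by the upper quartile, the recovered reads in DESeq2 1.42.0 and edgeR 4.0.16, leaving out each library, a fit of all 4 replicates with a term for the table and, chosen after seeing the data, a length trend together with the block. Single results of 2 genes of the lists are not reported here. Transcript lengths and positions came from GENCODE M21 (GRCm38, the same assembly as mm10).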

Additional observations from a re-analysis of the deposited data

Results flagged for a closer look

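The 5 h log2 ratios of treated to untreated in the 4 replicates were searched for single values far from the rest in 9 genes, a search that picks out about 1 group in 20 by chance. The Gch1 ratio of replicate 1 was 1.99 on the log2 scale against 2.76 to 2.90 in replicates 2 to 4. The Pts ratio of replicate 1 was -1.38 against 0.10 to 0.38. Both values involve the untreated 5 h library of replicate 1, which held the largest share of reads on ribosomal protein genes (6.92%). With the length trend subtracted they were 2.02 for Gch1 and -0.59 for Pts.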

How the results depend on the processing

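Nos2 was called higher alone in the comparison of replicates 2 to 4 under pseudocounts of 0.1 and 10, a mean of at least 50, upper quartile rescaling and edgeR. These settings called 0.649% to 0.944% of all genes higher. The count of the 9 genes called higher was 2 with all genes above 0 (10 tested, against 0.568% of all genes). It was 2 with all 4 replicates and the table as batch (1.26%) and 2 with the length trend subtracted (1.11%). DESeq2 gave 3 (2.57%). The count was 4 with the replicate block (4.05%), with edgeR and the block (4.28%), and with the length trend and the block (4.14%). Leaving out 1 library gave 0 to 3, against 0.00764% to 3.41% of all genes. The cause of these changes was not tested, but the same settings also moved the count over all genes: 112 were higher without the block, 530 with it and 337 with DESeq2, and 1 to 447 with 1 library left out. The 1 gene called lower in any setting was Arg1, in edgeR with the block (1 lower, against 4.14% of all genes). Of the 59 other pathway genes, 10 rose with the replicate block (against 4.05% of all genes), 10 with edgeR and the block (4.28%) and 10 with DESeq2 (2.57%). There were 9 with the length trend and the block (4.14%), and 0 to 11 with 1 library left out (0.00764% to 3.41%). Sat1 lost its call with the length trend subtracted, with or without the block, and with all 4 replicates, Odc1 with the length trend and the block, and Il1a with a pseudocount of 10. The genes that fell were 3 with the replicate block (against 4.28% of all genes) and 3 with edgeR and the block (4.14%). There were 2 with the length trend and the block (2.96%) and 0 to 2 with 1 library left out (0% to 3.9%). The block changed no other call among the 9 genes or the 59. The Nos2 log2 fold change was 6.44 with a pseudocount of 10 and 8.02 to 8.95 with 1 library left out. In replicate 1, 0 genes were lower at 5 h with the length trend subtracted, and 0 were lower at 12 h with a pseudocount of 10. By Spearman correlation, 2 of the 5 genes most like Nos2 were shared. The log2 fold change of Arg1, which edgeR with the block called lower, went from -0.82 to 0.19 in limma without the untreated library of replicate 2. Those of Asl and Pts, which no setting called, went from 0.02 to -0.15 and from 0.26 to -0.13 with all 4 replicates and the table as batch. Low reads limit Nos3, Arg1 and the untreated values of Nos2 and Arg2.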
